A study of Mus musculus with 6 samples.

Results

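The Myc, Max and Mxd network was described here as 10 genes, taken by symbol: Myc, Mycn, Max, Mxd1, Mxd3, Mxd4, Mxi1, Mnt, Mlx and Mga. The deposited tables listed 22800 symbols, and each of the 10 genes was found once in every library. RNA sequencing had been done on murine oviductal epithelial (MOE) cells, a line made from pooled oviducts of 8-week-old CD1 female mice. The labels put passages 8, 9 and 10 in MOE LOW, and they put passages 90, 103 and 113 in MOE HIGH, with 1 library per passage. No allele or agent distinguished the groups in the labels, and both were grown in the same serum-containing medium with epidermal growth factor, insulin and oestradiol. Because all 6 libraries came from 1 line, p-values measured the spread between passages.

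Values were fragments scaled to transcript length and to library size (FPKM), summing to between 597486 and 770709 per library. How library size was set, and the depth in absolute terms, are unknown. The column heading inside each table named another passage or none, so each library was identified by its sample record. The passage named for a single library rests on that record alone and could not be checked. Genes whose mean over the 6 libraries reached 0.5 FPKM were tested with limma on log2(FPKM + 1), and a gene was called when its Benjamini-Hochberg adjusted p over all 11621 tested genes was under 0.05. A log2 fold change is MOE HIGH minus MOE LOW on that scale, so for low genes it is smaller than the change in FPKM. Among all tested genes 24.3% were called higher and 32.1% lower in MOE HIGH, and the marker counts here stand beside these shares. The labelled epithelium was checked against 7 markers, of which 5 were tested, 2 were higher, 0 lower and 3 not called. Krt18 and Krt7, keratins of simple epithelium, had means of 798 and 0.638 FPKM (MOE LOW) and of 2029 and 2.18 FPKM (MOE HIGH). Pax8 (49.2 and 45.0 FPKM), Krt8 (47.1 and 40.6 FPKM) and Ovgp1 (0.875 and 0.887 FPKM) were not called, and Epcam and Cdh1 were near 0 in all 6 libraries. Of other cell types, 4 of 4 tested smooth muscle markers and 4 of 5 fibroblast markers were lower in MOE HIGH, but 1 and 3 of these, respectively, passed the filter through MOE LOW alone. The summed smooth muscle markers were 7686 to 11031 FPKM in the MOE LOW libraries against 9.33 to 17.9 FPKM in those of MOE HIGH, and the summed fibroblast markers from 568 to 912 and from 18.5 to 27.3 FPKM. The sum of leukocyte markers was between 1.35 and 2.24 FPKM in every library, with Ptprc near 0. Of 3 tested mesothelial markers 2 were higher and 1 lower, and their sum was 69.1 to 80.5 FPKM across MOE LOW but 242 to 328 FPKM across MOE HIGH. Of 4 tested ciliated cell markers 2 were higher and 1 lower, and the 1 tested endothelial marker, Kdr, was lower. Kdr and 2 of the called ciliated markers were also tested only through the group where they are high. The part of these markers in the network's results was not tested, and in bulk RNA fewer cells of a type and less RNA per cell cannot be told apart.

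Max is the shared dimerization partner of the network. Paired with Myc or Mycn it activates genes through the E-box CACGTG, and paired with an Mxd protein (Mxd1, Mxd3, Mxd4 or Mxi1), Mnt or Mga it represses them, the Mxd proteins and Mnt through the Sin3 corepressor. Mlx is a Max-like protein that pairs with Mxd1, Mxd4, Mnt and the glucose-responsive Mondo factors. In many tissues Myc marks proliferating cells and the Mxd genes other than Mxd3 rise as cells stop dividing and differentiate.

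The network's own promoters were searched for the E-box its proteins bind. RefSeq promoter windows of GRCm38.p6, from 250 bases before to 50 bases after a gene's start, were available for 9 of the 10 genes. Myc had no window, so its promoter was not searched. CACGTG, which reads the same on both strands, was present in 4 of these 9, Mxd4, Mnt, Mlx and Max, and in 8.09% of the 27025 genes with a window. The 40 bases around each match are shown, with the E-box in capitals, because they include both the gene that fell most and a gene that rose.
Mxd4: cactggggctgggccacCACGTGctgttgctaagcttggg
Mnt: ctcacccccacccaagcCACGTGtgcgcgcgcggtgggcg
Mlx: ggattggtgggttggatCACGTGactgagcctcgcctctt
Max: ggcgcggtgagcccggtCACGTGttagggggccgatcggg
The Mxd4 stretch is chr5:34187907-34187946 on the minus strand, and its E-box begins at position -219 from the RefSeq start. The Mnt stretch is chr11:74830784-74830823 on the plus strand, at position -123. The Mlx stretch is chr11:101087233-101087272 on the plus strand, at position -40, and the Max stretch is chr12:76962229-76962268 on the minus strand, at position -3. Annotated starts differ between sources and also within RefSeq. The Mlx and Max stretches lie inside the RefSeq gene spans given below for these genes. GENCODE vM21 gives the same strand for all 4 genes, but its Max begins 47 bases downstream of the RefSeq start, so the Max window could not be matched to a GENCODE transcript. Of the 4 genes with the motif, Mxd4 was lower, Mlx was higher, and Mnt and Max did not pass the test, as detailed for each gene. The match is a description of the letters and not a measurement of binding.

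All 10 genes passed the minimum of 0.5 FPKM. Mxd4 and Mxd1 were called lower and Mlx and Mxi1 higher in MOE HIGH, and 6 genes did not pass the test. These 2 higher and 2 lower of 10 stand against 24.3% higher and 32.1% lower among all tested genes, or 56.4% in either direction. The 2 groups did not overlap in 4 of the 10 genes, against 64.0% of all tested genes. The median log2 fold change of the network was -0.01, and that of all tested genes was -0.05.

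**Figure D1:**
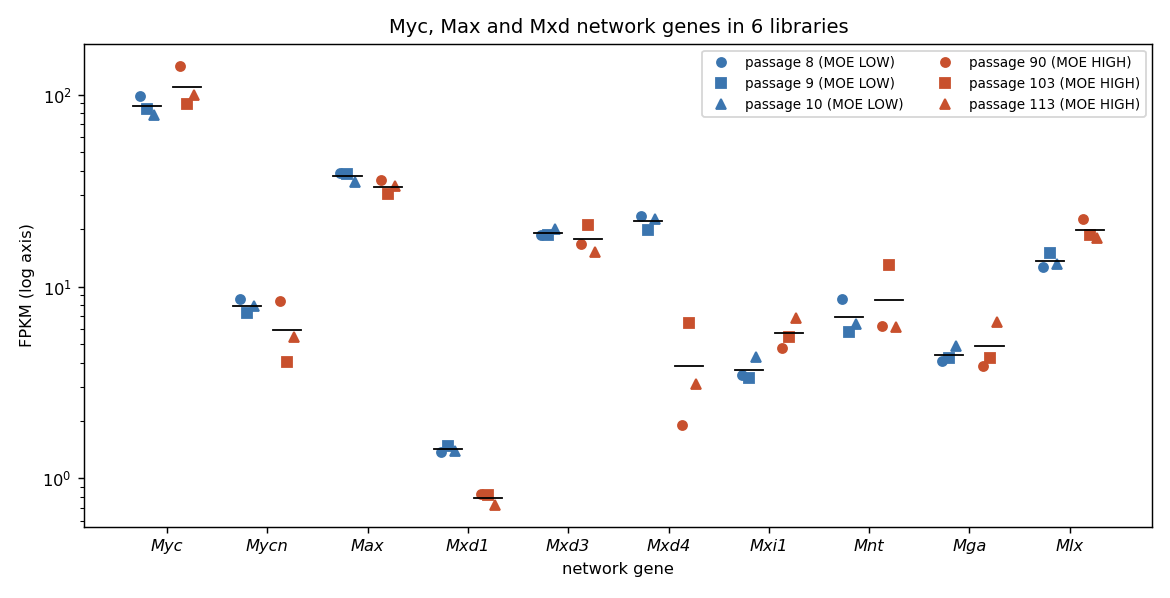
FPKM (vertical axis, log scale) of each network gene (horizontal axis) in the 6 libraries, with MOE LOW in blue, MOE HIGH in red, 1 symbol per passage and short bars at the group means (n = 3). Mxd4 lay between 19.7 and 23.4 FPKM in MOE LOW and between 1.89 and 6.49 FPKM in MOE HIGH, while the 2 groups of Myc overlapped.

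Myc, the activator of growth and cell cycle genes that gives the network its name, was the most abundant member in every library. It was at 98.0, 84.5 and 78.7 FPKM in passages 8, 9 and 10 and at 141, 89.5 and 99.1 FPKM in passages 90, 103 and 113. Passage 90 stood highest, and passage 103 lay inside the MOE LOW range, so the groups overlapped. The means were 87.0 ± 9.91 and 109.9 ± 27.5 FPKM (SD, n = 3), a log2 fold change of 0.31 (SE 0.18, 95% interval -0.10 to 0.73) with an adjusted p of 0.17. Without passage 90 the mean of MOE HIGH was 94.3 FPKM. Myc spans chr15:61985341-61990361 (mm10).

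Mycn, a Myc relative best known from embryonic and neural tissue, was far less abundant than Myc. It was at 8.64, 7.24 and 7.89 FPKM in MOE LOW and at 8.38, 4.02 and 5.46 FPKM in MOE HIGH. Passages 103 and 113 lay under every MOE LOW library, and passage 90 lay among them. The log2 fold change was -0.40 (SE 0.22, 95% interval -0.91 to 0.10; adjusted p = 0.15), and without passage 90 it was -0.64 with an adjusted p of 0.011, so that 1 library decided the call. The gene spans chr12:12936093-12941836.

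Max, the shared partner of Myc, Mycn, the Mxd proteins, Mnt and Mga, was at 39.0, 38.4 and 35.2 FPKM in MOE LOW and at 35.8, 30.4 and 33.4 FPKM in MOE HIGH. The groups overlapped only through passages 10 and 90. The log2 fold change was -0.17 (SE 0.10, 95% interval -0.41 to 0.06; adjusted p = 0.18). Max spans chr12:76937269-76962323.

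Mxd4, an Mxd repressor linked to the exit from proliferation, had the largest difference of the 10 genes. It was at 23.4, 19.7 and 22.4 FPKM in passages 8, 9 and 10. In passages 90, 103 and 113 it was at 1.89, 6.49 and 3.11 FPKM. Every MOE HIGH library was far under every MOE LOW library, with passage 103 the least low. The means of 21.8 ± 1.92 and 3.83 ± 2.38 FPKM gave a ratio of 5.70, and the log2 fold change was -2.35 (SE 0.31, 95% interval -3.06 to -1.64) with an adjusted p of 0.00040. Without passage 103 the MOE HIGH mean was 2.50 FPKM. Mxd4 was also the 1 member called in a test against a 2-fold change (adjusted p = 0.014), which 10.4% of all tested genes passed. It spans chr5:34176580-34187710, on a chromosome whose 742 tested genes had a median log2 fold change of -0.13. The 10 tested genes flanking it, taken in equal number on each side in order of start, had a median of 0.10.

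Mxd1, the founding Mxd repressor, was the least abundant member. It was at 1.38, 1.48 and 1.39 FPKM in MOE LOW and at 0.830, 0.817 and 0.728 FPKM in MOE HIGH. The groups did not overlap, and the libraries within each group were close together. The MOE HIGH mean of 0.792 ± 0.0558 FPKM was 56.0% of the MOE LOW mean of 1.41 ± 0.0531 FPKM, with a log2 fold change of -0.43 (SE 0.10; adjusted p = 0.0065). Mxd1 spans chr6:86647044-86669234, on a chromosome where the median of 542 tested genes was -0.18.

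Mxi1, the Mxd family member also known as an antagonist of N-Myc, went the other way. It was at 3.45, 3.33 and 4.29 FPKM in MOE LOW and at 4.79, 5.45 and 6.85 FPKM in MOE HIGH. Passage 10 came near passage 90, but the groups did not overlap. The log2 fold change was 0.51 (SE 0.15, 95% interval 0.16 to 0.85; adjusted p = 0.020). The call was lost without passage 8 (adjusted p = 0.070), without passage 9 (0.079) and after scaling to equal summed values (0.12), so it was the least firm of the 4 calls. Mxi1 spans chr19:53310128-53373293, and of 413 tested genes on chromosome 19, 273 were higher and 45 lower, with a median log2 fold change of 0.70, above that of Mxi1 itself. The 10 tested genes flanking Mxi1 had a median of 0.22, below it. The share of its chromosome in the value of Mxi1 was not tested.

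Mxd3, the Mxd repressor that is expressed in cycling cells, was at 18.5, 18.5 and 19.9 FPKM in MOE LOW and at 16.6, 20.9 and 15.2 FPKM in MOE HIGH. The MOE LOW libraries lay inside the MOE HIGH range. The log2 fold change was -0.11 (SE 0.13, 95% interval -0.42 to 0.19; adjusted p = 0.48). Mxd3 spans chr13:55325170-55329900.

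Mnt, the widely expressed repressor that opposes Myc in dividing cells as well, was at 8.58, 5.83 and 6.36 FPKM in MOE LOW and at 6.21, 13.0 and 6.19 FPKM in MOE HIGH. Passage 103 stood alone, and the other 5 libraries overlapped. The log2 fold change was 0.20 (SE 0.27; adjusted p = 0.56), and it turned to -0.12 without passage 103. The gene spans chr11:74830806-74845725.

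Mga, which carries both a T-box and a Max-binding domain and is the DNA-binding part of a Polycomb complex (PRC1.6), was at 4.08, 4.23 and 4.89 FPKM in MOE LOW and at 3.87, 4.26 and 6.57 FPKM in MOE HIGH. The groups overlapped, with passage 113 highest. Its log2 fold change was 0.10 (SE 0.18; adjusted p = 0.64), and it turned to -0.090 without passage 113. Mga spans chr2:119872503-119970129, on a chromosome with a median of 0.22 over 926 tested genes.

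Mlx, the Max-like partner, was at 12.6, 15.0 and 13.2 FPKM in MOE LOW and at 22.6, 18.5 and 18.0 FPKM in MOE HIGH. All 3 MOE HIGH libraries were above all 3 MOE LOW libraries. The means were 13.6 ± 1.23 and 19.7 ± 2.55 FPKM, and the difference on the log2 scale was 0.50 (SE 0.12, 95% interval 0.21 to 0.79; adjusted p = 0.0098). Mlx spans chr11:101086707-101092207, where the 10 flanking tested genes had a median of -0.10.

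**Figure D2:**
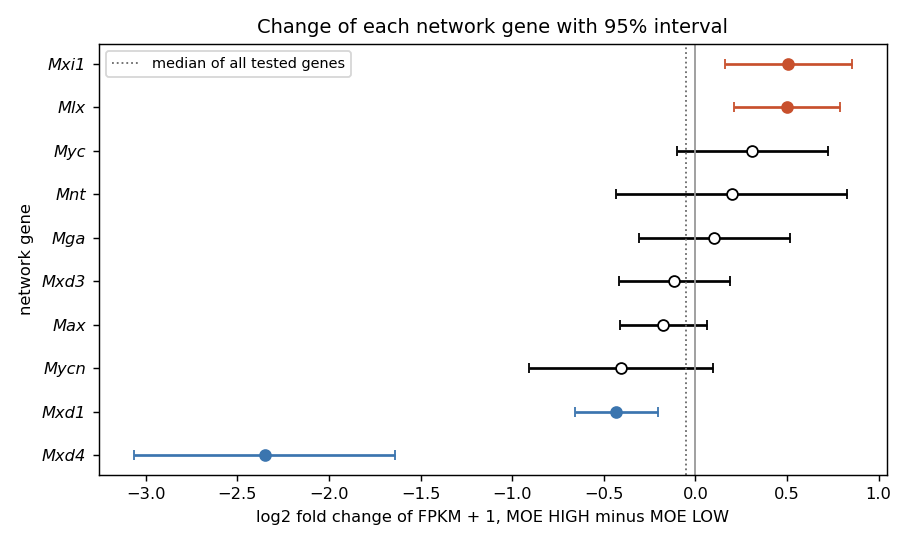
Log2 fold change of FPKM + 1 (MOE HIGH minus MOE LOW) of the 10 genes with 95% intervals from limma, filled in red where called higher and in blue where called lower. Mxd4 at -2.35 stands apart from the other 9 genes, which lie between -0.43 and 0.51.

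FPKM are per length, so levels can be set side by side between genes. In MOE LOW the order by mean level was Myc, Max, Mxd4, Mxd3, Mlx, Mycn, Mnt, Mga, Mxi1 and Mxd1. The library ranges of 3 neighbouring pairs overlapped there, Mxd4 with Mxd3, Mycn with Mnt, and Mga with Mxi1. In MOE HIGH the order was Myc, Max, Mlx, Mxd3, Mnt, Mycn, Mxi1, Mga, Mxd4 and Mxd1. Mxd4 moved from place 3 to place 9, and Mlx with Mxd3, and each neighbouring pair from Mnt down to Mxd4, had overlapping ranges.

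Max can pair with 8 of these genes' products, and the summed level of the 8 genes was 152 ± 12.0 FPKM (MOE LOW) and 157 ± 23.1 FPKM (MOE HIGH). Divided by Max, this sum was 4.06 ± 0.257 and 4.73 ± 0.423. The makeup of the sum differed more than its size. Myc made up 59.0, 58.3 and 54.0% of it in MOE LOW, against 76.8, 61.9 and 69.2% in MOE HIGH. Mxd4 made up 14.1, 13.6 and 15.4% of it in MOE LOW, against 1.03, 4.49 and 2.17% in MOE HIGH. Neither share overlapped between the groups. These shares are of mRNA and not of protein, and since they sum to 100%, a fall of 1 gene raises the shares of the others.

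The Mxd family alone (Mxd1, Mxd3, Mxd4 and Mxi1) summed to 45.9 ± 2.56 FPKM (MOE LOW) and 27.9 ± 5.10 FPKM (MOE HIGH). Within that sum Mxd4 went from 47.5 to 13.0%, Mxd3 from 41.4 to 63.2%, Mxi1 from 8.02 to 20.8%, and Mxd1 from 3.09 to 2.89%. Mxd4 and Mxd3 were close to equal in MOE LOW, whereas Mxd3 was the main Mxd transcript in MOE HIGH.

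The 4 Mxd genes and Mnt together were at 55.3, 48.9 and 54.3 FPKM in MOE LOW and at 30.3, 46.7 and 32.1 FPKM in MOE HIGH. All MOE HIGH sums were lower, but passage 103 came close to passage 9. It had the highest Mnt, Mxd3 and Mxd4 of the MOE HIGH libraries. The ratio of Myc plus Mycn to these 5 antagonists was 1.93, 1.88 and 1.59 in MOE LOW, against 4.93, 2.00 and 3.26 in MOE HIGH. Mycl1, another Myc paralogue, is outside the 10 genes and was left out. It was at 3.84, 3.15 and 4.57 FPKM in MOE LOW and near 0 in MOE HIGH. Adding it would raise the MOE LOW ratios and bring passage 8 still closer to passage 103. On the log2 scale the ratio was 0.84 ± 0.149 and 1.67 ± 0.651 (SD, n = 3), given as a description. The difference of 0.83 was 0.51 without passage 90 and 1.16 without passage 103. Passage 103 was nearly level with passages 8 and 9, so the higher mean ratio rested on passages 90 and 113.

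**Figure D3:**
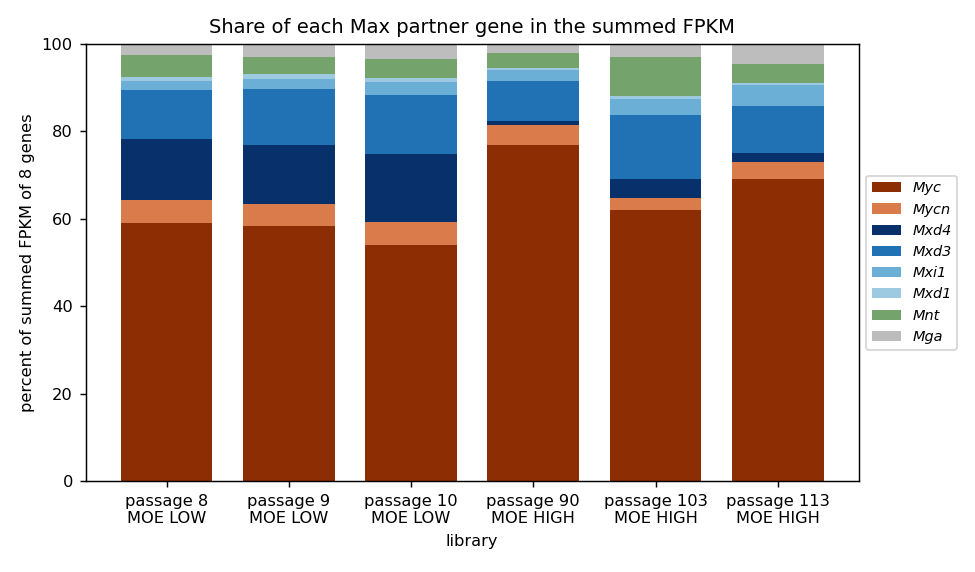
Share of each Max partner gene in the summed FPKM of the 8 partner genes (vertical axis, percent) in each library. The dark blue Mxd4 segment covers 13.6 to 15.4% of each MOE LOW bar but 1.03 to 4.49% of each MOE HIGH bar, and passage 103 has the largest Mnt segment.

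Genes that work with the network were examined by list, each list being written from general knowledge with earlier results of these data known, so the counts describe the lists and are no independent evidence. They stand against 24.3% higher and 32.1% lower among all tested genes. Other basic helix-loop-helix zipper factors of E-boxes numbered 6 tested genes of 9, of which 1 (16.7%) was higher, 1 lower and 4 not called. Tfeb, the lysosomal and autophagy regulator, rose from 2.95 ± 0.625 to 9.06 ± 2.02 FPKM (adjusted p = 0.00042). Mycl1, the third Myc paralogue, was at 3.84, 3.15 and 4.57 FPKM in MOE LOW and at 0.0836, 0.0174 and 0.0302 FPKM in MOE HIGH. The groups lay far apart, and the log2 fold change of -2.21 (adjusted p = 6.1e-06) understates this low gene, which passed the filter only through MOE LOW. Mycl1 was singled out after its values were seen.

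Of 16 Myc cofactors, 6 were higher, 0 lower and 10 not called, with a median log2 fold change of 0.29. Kat5, the Tip60 acetyltransferase, rose from 21.5 to 49.3 FPKM. Wdr5, a chromatin scaffold that binds Myc, rose from 28.8 to 64.2 FPKM, and Ruvbl2, an ATPase of chromatin complexes, from 78.3 to 151 FPKM. Of 17 subunits of the Sin3 and NCoR corepressors through which Mxd and Mnt act, 6 were higher, 1 lower and 10 not called, with a median of 0.07. Sap30 rose from 13.1 to 27.5 FPKM and Brms1 from 30.3 to 58.1 FPKM, and Sap18, also a splicing-associated protein, fell from 374 to 129.6 FPKM. The higher genes were 37.5 and 35.3% of the 2 lists, against 24.3% of all genes, and the lower ones 0 and 5.88%, against 32.1%. The higher Sin3 and NCoR count was 2 after scaling to equal summed values and 3 without passage 8 or 9, and the higher cofactor count was 10 without passage 113. Kat5 and Brms1 lie on chromosome 19, with its median of 0.70, whose part in their values was not tested.

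The 11 partners of Mga in PRC1.6 included 3 higher, 3 lower and 5 not called, or 27.3% in each direction, near the 24.3 and 32.1% of all tested genes. Without passage 8 or 103 the lower count was 1. Pcgf6, the subunit that defines this Polycomb complex, rose from 9.43 to 21.8 FPKM, and its gene also lies on chromosome 19. E2f6, its E2F-family repressor, fell from 19.0 to 12.1 FPKM, and Rnf2, the ubiquitin ligase, from 15.9 to 10.8 FPKM. Of 14 germline genes that this complex is known to silence, 13 were under the minimum mean of 0.5 FPKM. The 1 tested gene, Tdrkh, which acts in the piRNA pathway, rose from 5.29 to 18.9 FPKM.

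Genes that set the lifetime of the Myc protein included 8 higher, 3 lower and 7 not called of 18 tested, with a median of 0.23. These were 44.4% higher and 16.7% lower, against 24.3 and 32.1% of all tested genes. Skp2, a ubiquitin ligase subunit that acts on Myc, rose from 10.8 to 23.7 FPKM, and Aurka, a kinase that stabilizes N-Myc, from 40.1 to 75.9 FPKM. Gsk3b, the kinase whose mark precedes Myc degradation, fell from 14.8 to 8.97 FPKM, and Fbxw7, the ligase that reads this mark, from 5.88 to 4.17 FPKM (log2 fold change -0.41, adjusted p = 0.012). No protein was measured in these files. Of the 3 lower calls 0 remained without passage 8.

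Regulators of Myc transcription and mRNA included 6 higher, 4 lower and 9 not called of 19 tested, or 31.6 and 21.1%, against 24.3 and 32.1% of all tested genes. Among the lower genes, Lef1, a Wnt pathway factor named after its values were seen, passed the filter only through MOE LOW. Tcf7l1, a repressor at Wnt target genes, fell from 11.4 to 1.54 FPKM, and Stat3, a cytokine-activated factor, from 28.7 to 8.25 FPKM. E2f4 rose from 33.5 to 87.6 FPKM. Igf2bp1, which stabilizes the Myc mRNA, was at 0.474, 0.707 and 0.570 FPKM in MOE LOW and at 8.83, 7.93 and 9.85 FPKM in MOE HIGH (adjusted p = 1.6e-06). It was named after its values were seen, as was Pvt1, the long noncoding RNA gene next to Myc. Pvt1 was at 10.1, 6.88 and 7.01 FPKM in MOE LOW and at 7.94, 7.20 and 6.52 FPKM in MOE HIGH, overlapping groups with an adjusted p of 0.56.

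Around Mlx, 4 genes were listed and 3 tested. Txnip, the glucose-responsive inhibitor of thioredoxin and a target of Mlx with a Mondo factor, was at 122, 68.9 and 71.9 FPKM in MOE LOW and at 6.57, 8.27 and 4.16 FPKM in MOE HIGH. The log2 fold change of Txnip was -3.59 (adjusted p = 2.2e-05). Arrdc4, an arrestin-domain gene under the same control, was at 8.30, 4.42 and 4.36 FPKM and at 0.348, 0.381 and 0.300 FPKM, and it passed the filter only through MOE LOW. Both were far lower in every MOE HIGH library, while Mlx itself was higher. Mlxip, the MondoA partner, was at 5.98, 5.78 and 6.23 FPKM and at 5.90, 6.63 and 8.31 FPKM (adjusted p = 0.30), with overlapping groups, and Mlxipl was near 0 in all libraries.

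Genes known as activated by Myc were mostly higher in MOE HIGH, and Myc itself was not called. Of 31 such genes 24 were higher, 3 lower and 4 not called. This is 77.4% higher, beside 24.3% of all tested genes, and the median log2 fold change was 0.69, beside -0.05. Nolc1, a nucleolar phosphoprotein, rose from 40.2 to 143 FPKM, Rrp12, a ribosome assembly factor, from 12.3 to 41.9 FPKM, and Ncl (nucleolin) from 467 to 1264 FPKM. Nolc1 and Rrp12 are the 2 genes of this list on chromosome 19, with its median of 0.70, whose part in their values was not tested. The lower genes were Ccnd2 (cyclin D2), which fell from 135 to 41.6 FPKM, the arginine methyltransferase Prmt5, from 35.0 to 24.3 FPKM, and the telomerase gene Tert, from 1.37 to 0.513 FPKM. Tert lay under the mean of 5 FPKM used to choose names.

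Genes known as repressed by Myc included 7 lower, 1 higher and 2 not called of 10 tested, with a median of -1.16. These were 70.0% lower and 10.0% higher, against 32.1 and 24.3% of all tested genes. Thbs1, the matrix glycoprotein thrombospondin 1, fell from 289 to 16.8 FPKM, and Clu (clusterin) from 29.2 to 5.10 FPKM. Ndrg2 was at 22.2, 15.4 and 14.2 FPKM in MOE LOW and was listed at 0 in 2 MOE HIGH libraries. Ndrg1, a stress-responsive gene of the same family, rose from 8.09 to 27.0 FPKM. Ndrg2 and Pdgfrb, a receptor gene of stromal cells, passed the filter only through MOE LOW. Fibroblast and smooth muscle markers also fell, and their part in the fall of this list was not tested.

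**Figure D4:**
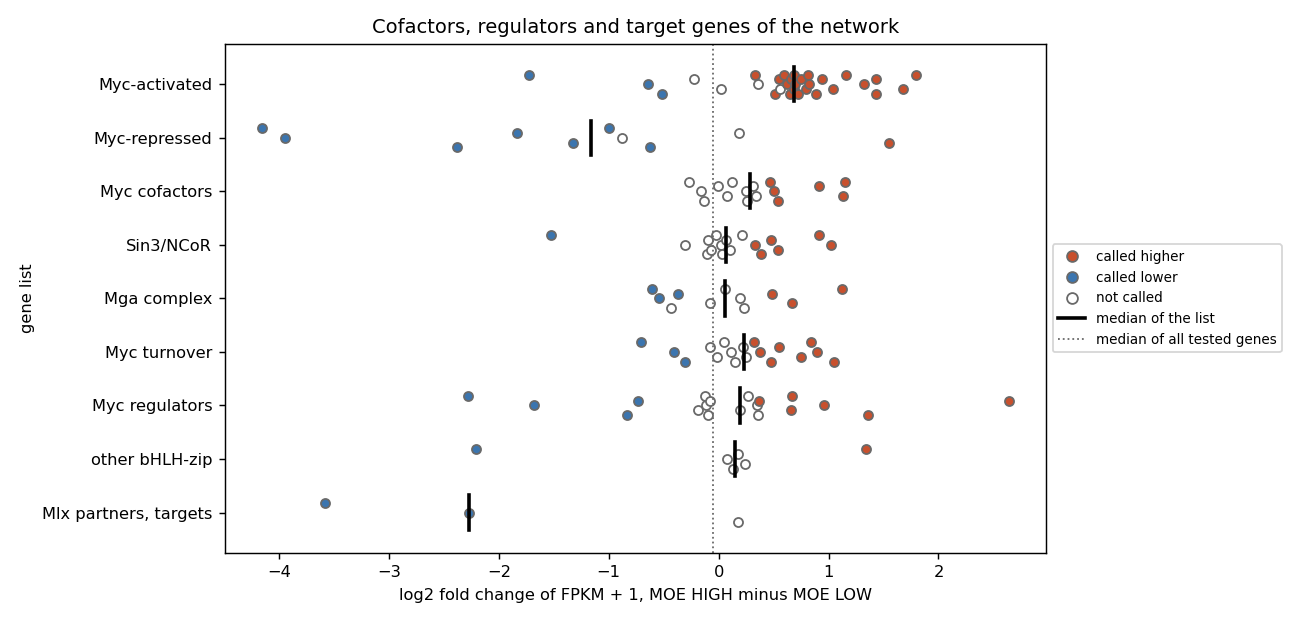
Log2 fold change of FPKM + 1 (horizontal axis) for the tested genes of each list, 1 point per gene, coloured by call, with a bar at the list's median and a dotted line at the median of all tested genes. The Myc-activated genes centre on 0.69 and the Myc-repressed genes on -1.16, while the Sin3 and NCoR subunits centre on 0.07 with both directions present.

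The genes whose profile over the 6 libraries was most like that of Myc were sought among the 8324 genes whose mean reached 5 FPKM, by the root mean square difference of centred log2(FPKM + 1). They were Ehd1 at 0.102, Thg1l at 0.110, Alkbh2 at 0.114, and Fitm2 and Psmg2 at 0.115, where Myc's own root mean square deviation was 0.268. No member of the network was among these 5 genes, but Mxd1, Mxi1 and Mga lay under the minimum of 5 FPKM and were not compared.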

How the data were processed

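Stranded, ribosomal RNA-depleted total RNA of 6 libraries was sequenced by the authors and aligned to mm10 with TopHat2 2.0.8b, and the FPKM they deposited for each library came from Cufflinks and Cuffdiff 2.1.1 with gene models of UCSC. Tool versions follow the submitters' processing notes. No counts were used here. Of 23141 entries per library, 577 carried one of 236 repeated symbols, and for each such symbol the entry of largest mean was used. No network gene was among these.

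Libraries were grouped by sample record. Differences were fitted by limma 3.58.1 under R 4.3.3 (variance trend, pseudocount 1, mean of at least 0.5 FPKM, no block) and p-values adjusted by Benjamini-Hochberg. An exact test of 3 against 3 libraries cannot go below 0.1. The members and lists were chosen with earlier results of these data known, so no list was tested. Named genes were the members, up to 3 called genes per list and direction with a mean of at least 5 FPKM, the Mlx list, cell type markers, and the 5 genes most like Myc. Alternatives changed the scaling, pseudocount, filter, trend, fold tested, treatment of shared symbols, replicate block and libraries. Same-numbered libraries did not deviate together (correlations -0.02, -0.15 and 0.12), and nothing in the labels pairs them. The value of 1 fragment relative to passage 8 was read from genes under 0.05 FPKM and differed by -0.16 and -0.14 on the log2 scale in passages 9 and 10. It could not be read closely in MOE HIGH. Promoter windows came from RefSeq (GRCm38.p6) and matched 9 of 10 genes, all but Myc. Gene spans also came from RefSeq.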

Additional observations from a re-analysis of the deposited data

How the results depend on the processing

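The numbers of network genes called were 2 higher and 2 lower, and Mxd4 was called under all 16 alternatives (log2 fold change -2.72 to -2.04, adjusted p 6.1e-05 to 0.014). Scaling to equal summed values left 1 member higher (Mlx), 2 higher Sin3 and NCoR subunits, and 5 higher and 1 lower Myc turnover genes. Restricted to genes whose mean reached 5 FPKM, 1 member was higher and 1 lower, 0 other zipper factors and 1 gene of the Mlx list were lower, and 2350 of all genes were lower, since fewer genes are tested. With no filter 2 other zipper factors and 1 germline gene were lower. Against a 2-fold change 303 genes were higher and 907 lower, with 0 members higher and 1 lower. In that test 0 genes were higher in the lists of zipper factors, cofactors, Sin3 and NCoR, Mga partners, turnover and repressed genes, 0 were lower among Mga partners and turnover genes, 3 activated genes were higher and 1 lower, 4 repressed genes were lower, and 2 regulators were higher and 2 lower.

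Leaving out 1 library in turn gave 1 to 2 higher members, with 1 without passage 8 or 9. It gave 1 to 2 higher zipper factors, 5 to 10 higher cofactors (10 without passage 113), 3 to 6 higher (3 without passage 8 or 9) and 1 to 2 lower Sin3 and NCoR subunits (2 without passage 113), 1 to 4 lower Mga partners (1 without passage 8 or 103), and 5 to 9 higher (5 without passage 8) and 0 to 3 lower turnover genes (0 without passage 8, and 1 without passage 10, 90 or 103). All-gene counts ranged from 2212 to 3318 higher and from 3030 to 4378 lower. Over these fits Mnt ranged from -0.12 (without passage 103) to 0.36, and Mga from -0.090 (without passage 113) to 0.23, and neither was called. With the replicate block 2967 genes were higher and 3839 lower and no member changed its call. The log2 activator over antagonist difference of 0.83 ranged from 0.51 (without passage 90) to 1.16 (without passage 103). The absolute depth is unknown, and the 3 passages per group came from 1 line.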
